A study of Mus musculus with 11 samples.

Results

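A group of 5 genes of the small vessels of the brain, Abcb1a, Thbd, Abcc9, Kcnj8 and Rgs5, are described here in neocortical tissue of mice at embryonic day 18. Each gene had 1 probe, so they make up 5 of the 6856 probes and 5 of the 6041 named genes on the array. They were chosen by their symbols and by their own ratios between mutant and wild-type cortex, which an earlier look at these data had already shown. Their ratios are therefore given as a description, without a test.

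The mutants were null mutants on a C57BL/6 background, and the title of the series names gene expression regulated by synaptic activity as its subject. Each of 11 two-colour arrays set neocortical RNA of 1 null sample of day 18 against RNA of wild-type neocortex of the same background, read here as 1 common pool. Null RNA was labelled with Cy3 for arrays 1, 2, 6, 7, 8 and 10, and for arrays 3, 4, 5, 9 and 11 with Cy5. For the wild-type RNA of arrays 1 and 6, 1 label gives day 14 and another day 18. The null samples are labelled as biological replicates. The wild-type pool has no replicate of its own, so its spread enters no error. The ratios hold no absolute levels, so the identity of the tissue could not be checked against marker levels.

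The vessels of the cortex grow in from the surface before birth. Endothelial cells line them and form the blood-brain barrier, with tight junctions and with pumps such as P-glycoprotein, the product of Abcb1a, which returns lipid-soluble compounds to the blood. Pericytes sit on the outside of the capillaries and share a basement membrane with the endothelium. Rgs5, Kcnj8 and Abcc9 are widely used as pericyte markers in the brain. Kcnj8 encodes Kir6.1, the pore of a potassium channel that ATP closes, and Abcc9 encodes SUR2, the regulatory subunit of the same channel. Rgs5 speeds the switching off of G proteins that contraction-inducing receptors activate. Thbd encodes thrombomodulin, an endothelial surface protein that turns thrombin from a clotting enzyme into an activator of protein C.

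Values are log2 ratios of null over wild type, the log base being assumed, so that 0 is no difference. This direction is likely rather than stated. Xist, the RNA of the inactive X chromosome, had ratios between -7.37 and -4.18 on 6 arrays of both dye orientations. The reverse direction would give these only with a wild-type pool without females. On arrays 6, 7, 9 and 11 Xist lay between 0.002 and 0.67, and array 4 had no value for it. Whether the sex of the embryos adds to the spread between arrays was not tested. The lowest Spearman correlation between any pair of arrays was -0.078, so no pair ran clearly against another. Agreement between arrays was weak, however. The median correlation of an array with the others ran from 0.116 for array 4 and 0.141 for array 3 to 0.452 for array 7. Pairs with a correlation near 0 cannot show a shared direction. Array 4 had the widest spread of ratios, with an SD of 0.56 against 0.27 to 0.36 on the others, and the fewest values, 4822 against up to 6316. Across all genes with enough values, limma called 1386 of 4812 at an adjusted p of 0.05, or 28.8%, with 14.5% higher and 14.3% lower. The median ratio of all tested genes was -0.0051.

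Start regions of Abcb1a, Abcc9, Kcnj8 and Rgs5 are taken from RefSeq (GRCm38.p6); that of Thbd was not used here. The 250 bases before each start are shown because 3 of these genes had ratios above 0 and 1 below. Capitals mark CACCC on either strand, the letters that Klf and Sp factors can bind. Each sequence runs 5′ to 3′ along its gene.
Abcb1a, chr5:8566841-8567090, plus strand: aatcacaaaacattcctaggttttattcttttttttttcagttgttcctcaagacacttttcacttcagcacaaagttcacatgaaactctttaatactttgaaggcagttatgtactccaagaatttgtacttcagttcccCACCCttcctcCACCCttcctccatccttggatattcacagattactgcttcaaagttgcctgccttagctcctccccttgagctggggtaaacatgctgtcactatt
Abcc9, chr6:142702275-142702524, minus strand: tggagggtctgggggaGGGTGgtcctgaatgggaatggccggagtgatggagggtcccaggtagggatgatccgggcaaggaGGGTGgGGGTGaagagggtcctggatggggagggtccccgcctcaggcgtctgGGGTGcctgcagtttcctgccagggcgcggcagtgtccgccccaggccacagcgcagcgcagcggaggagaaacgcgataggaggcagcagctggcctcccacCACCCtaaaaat
Kcnj8, chr6:142571615-142571864, minus strand: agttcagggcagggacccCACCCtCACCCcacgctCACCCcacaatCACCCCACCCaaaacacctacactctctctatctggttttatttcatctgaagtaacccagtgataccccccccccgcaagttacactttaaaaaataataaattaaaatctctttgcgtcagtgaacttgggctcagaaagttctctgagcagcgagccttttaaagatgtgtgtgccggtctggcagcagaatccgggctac
Rgs5, chr1:169655251-169655500, plus strand: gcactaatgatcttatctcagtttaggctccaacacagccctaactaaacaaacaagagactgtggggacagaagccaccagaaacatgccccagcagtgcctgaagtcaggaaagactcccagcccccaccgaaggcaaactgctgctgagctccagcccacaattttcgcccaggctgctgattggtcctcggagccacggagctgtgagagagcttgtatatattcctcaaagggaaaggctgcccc
CACCC or its reverse complement occurred 2 times in the window of Abcb1a, 5 times in that of Abcc9, 5 times in that of Kcnj8 and 0 times in that of Rgs5. Of all 32851 windows of this length in the table, 52% held it at least once. The windows also differed in base composition, with 40.4% G and C and 0 CG pairs for Abcb1a, 66.8% and 12 for Abcc9, 49.2% and 6 for Kcnj8, and 53.6% and 4 for Rgs5. Kcnj8 and Abcc9 are next to each other among the coding genes of chromosome 6 and lie on the same strand. Rgs5 adjoins Rgs4 on chromosome 1, Abcb1a adjoins its close paralog Abcb1b on chromosome 5, and Thbd adjoins Cd93, another endothelial surface gene, on chromosome 2.

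Thbd had the highest ratio of the 5 genes and was above 0 on 11 of 11 arrays. Its ratios were 0.47, 0.86, 0.48, 0.47, 0.66, 0.60, 0.25, 0.93, 0.81, 0.58 and 0.84 on arrays 1 to 11. Array 7 was lowest and array 8 highest, and both carried the mutant RNA in Cy3. The mean of the 2 dye orientations was 0.63 ± 0.06 (SE, n = 11), a 1.55-fold higher level in the null cortex, and the SD over arrays was 0.21. Thbd ranked 18 from the highest of the 4812 genes tested. The Cy3 arrays had a mean of 0.62 and the Cy5 arrays one of 0.65.

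Abcb1a also had no array below 0, but its ratios were smaller and uneven. They were 0.38, 0.58, 0.56, 0.08, 0.03, 0.00, 0.16, 0.11, 0.05, 0.40 and 0.27 on arrays 1 to 11. Arrays 1, 2, 3 and 10 lay at 0.38 or above, arrays 7 and 11 between 0.16 and 0.27, and the other 5 at 0.11 or below. The mean was 0.23 ± 0.06 (SE, n = 11; SD 0.21), or 1.18-fold. None of the probes with 1 symbol was named for the neighbouring paralog Abcb1b. Whether the Abcb1a probe also reads that transcript was not tested.

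The channel subunits Abcc9 and Kcnj8 both had means above 0. Abcc9 had values on 8 arrays, at 0.45, 0.39, 0.12, 0.41, -0.01, 0.12, 0.49 and 0.11 on arrays 1, 2, 3, 4, 5, 7, 9 and 11. They fell into an upper set of 4 at 0.39 to 0.49 and a lower set of 4 at -0.01 to 0.12, each with arrays of both dye orientations. The mean was 0.27 ± 0.07 (SE, n = 8; SD 0.19), or 1.21-fold. Kcnj8 had values on 10 arrays, at 0.06, 0.23, -0.11, 0.40, 0.27, 0.29, 0.03, 0.05, 0.38 and 0.05 on arrays 1 to 7 and 9 to 11. Array 3 alone was below 0, and 4 arrays lay within 0.06 of 0. The mean was 0.17 ± 0.06 (SE, n = 10; SD 0.17), or 1.12-fold, the smallest difference of the 5 genes.

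Rgs5 was the only one of the 5 with a mean below 0. Its ratios were 0.02, -0.12, -0.55, -1.27, -0.10, 0.02, -0.27, -0.19, -0.25, -0.48 and -0.09 on arrays 1 to 11. It was below 0 on 9 of 11 arrays, and arrays 3, 4 and 10 were lowest. The mean was -0.31 ± 0.09 (SE, n = 11), or 0.81-fold, and the SD of 0.37 was larger than that of 90.5% of the genes tested. Without array 4 the mean was -0.21. The Cy3 arrays had a mean of -0.17 and the Cy5 arrays one of -0.45, of which array 4 is 1.

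**Figure D1:**
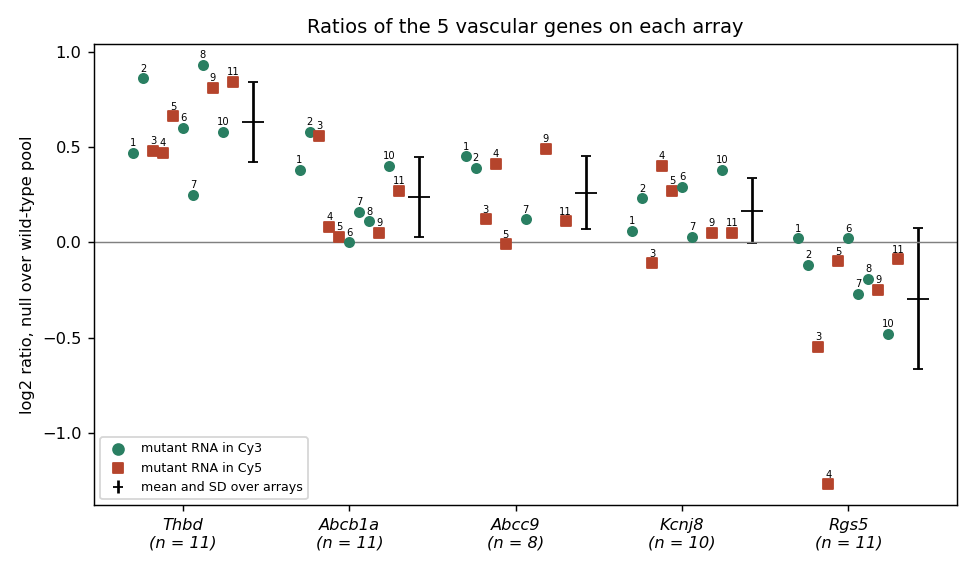
The y axis gives the log2 ratio of null over the wild-type pool, and each point is 1 array, with its number, for the gene on the x axis; green circles carry the mutant RNA in Cy3, red squares in Cy5, and black bars are the mean and SD over arrays. All 11 points of Thbd lie between 0.25 and 0.93, whereas those of Rgs5 run from 0.02 down to -1.27 on array 4.

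In order of the mean ratio the genes were Thbd (0.63), Abcc9 (0.27), Abcb1a (0.23), Kcnj8 (0.17) and Rgs5 (-0.31). The middle 3 lay within 0.11 of each other with standard errors of 0.06 to 0.07, and their arrays overlapped. Rgs5 overlapped with Abcb1a, Abcc9 and Kcnj8 near 0, and not with Thbd, whose lowest array (0.25) was above the highest of Rgs5 (0.02). In the fit over all genes 4 of the 5 were called higher and 1 lower, beside 14.5% and 14.3% of all genes, and since they were chosen with this contrast known nothing is read from that count. In bulk RNA, fewer cells of a type and less RNA per cell cannot be told apart.

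The dye orientation was not used to choose the genes, and the difference between Cy5 and Cy3 arrays was tested for each. It was 0.04 ± 0.13 (SE) for Thbd, -0.07 ± 0.13 for Abcb1a, -0.09 ± 0.14 for Abcc9, -0.07 ± 0.11 for Kcnj8 and -0.28 ± 0.19 for Rgs5. None of the 5 passed, with limma adjusted p between 0.387 and 0.887. Over all genes 0 of 4812 passed for the dye term, 0% of those tested, at a lowest adjusted p of 0.052, although 1087 had an unadjusted p under 0.05. The standard errors of these differences were 0.11 to 0.19, against 0.06 to 0.09 for the means. The fitted dye term itself had the same standard error as the mean for each of these genes. The larger errors thus come from the scale of the difference.

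Other endothelial genes showed no common direction. Of 40 tested genes of endothelium and barrier, leaving out Thbd and Abcb1a, 3 rose and 4 fell, and 33 did not pass. Their median was 0.051, and 17.5% were called, beside 28.8% of all genes. None of the genes that define the cell type passed. The junction genes Cdh5 and Cldn5 were at 0.10 ± 0.05 (SE) and 0.05 ± 0.06, and the adhesion molecule Pecam1 at 0.08 ± 0.04. The growth factor receptors Kdr, Flt1 and Tek were at 0.01 ± 0.05, -0.14 ± 0.07 and 0.13 ± 0.05. Their adjusted p lay between 0.077 and 0.924. The dye term (plus for Cy5, minus for Cy3 arrays) was 0.185 for Tek and 0.152 for Pecam1, larger than their means. It did not pass (limma adjusted p = 0.078 and 0.082). Procr, the receptor that presents protein C to thrombomodulin, was at 0.11 ± 0.06 (adjusted p = 0.187), and Cd93, the neighbour of Thbd, at -0.01 ± 0.10.

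Of the 7 endothelial genes that passed, S1pr1, Car4 and Nos3 were lower on every array. S1pr1, the receptor for sphingosine 1-phosphate that steadies endothelial junctions and is also made by neural cells, fell by 0.60 ± 0.05 (adjusted p = 1.9e-06). Car4, a carbonic anhydrase of the capillary surface, fell by 0.40 ± 0.05, and Nos3, the endothelial nitric oxide synthase, fell by 0.21 ± 0.04, each on 11 of 11 arrays. Slco1c1, which carries thyroid hormone into the brain, fell by 0.28 ± 0.08 on 6 of 11. Esm1, a proteoglycan of sprouting endothelial cells, rose by 0.24 ± 0.05, the lactate transporter Slc16a1 by 0.24 ± 0.07 and Palmd by 0.16 ± 0.05. The call of Palmd held in 4 of 19 other settings, that of Slc16a1 in 10 of 15 and that of Slco1c1 in 15 of 20, while those of S1pr1 and Car4 held in 19 of 20. The count of 3 genes that rose was 5 without array 4, and 1 without array 5, 6 or 11. Slc16a1 had values on 9 arrays and went untested in some settings, which can lower this count. On the Cy3 arrays alone 0 rose and 2 fell, and on the Cy5 arrays alone 1 rose and 3 fell. The dye term (plus for Cy5, minus for Cy3 arrays) was -0.25 for Slco1c1, 0.15 for Esm1 and 0.13 for Palmd. None of these passed (limma adjusted p between 0.108 and 0.174). For S1pr1, Car4, Nos3 and Slc16a1 it lay between -0.05 and 0.06.

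Pericyte and smooth muscle genes other than the 3 described above lay mostly above 0. Of 8 tested genes 4 rose, 0 fell and 4 did not pass, so that 50% were called, beside 28.8% of all genes. Their median was 0.153, against -0.0051 over all genes. The genes that rose were Gucy1a1 and Gucy1b1, the 2 subunits of the soluble guanylyl cyclase that senses nitric oxide, at 0.23 ± 0.04 (SE) and 0.21 ± 0.05, the transcription factor Foxc1 at 0.21 ± 0.06, and the matrix protein vitronectin, Vtn, at 0.26 ± 0.09. Notch3, the receptor that maintains mural cells, was at 0.01 ± 0.05, the aminopeptidase Anpep at 0.10 ± 0.05, the Notch target Heyl at 0.07 ± 0.07 and Mcam at -0.05 ± 0.05. The calls of Gucy1a1 and Gucy1b1 held in 18 of 20 and 17 of 19 other settings, that of Foxc1 in 14 of 19 and that of Vtn in 5 of 20. Without array 11, 2 genes rose in place of 4, as they did without arrays 1 and 6 and among genes with values on all 11 arrays. On the Cy3 arrays alone 3 rose, and on the Cy5 arrays alone 1. Pdgfrb, Cspg4 and Acta2 were not analysed here.

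**Figure D2:**
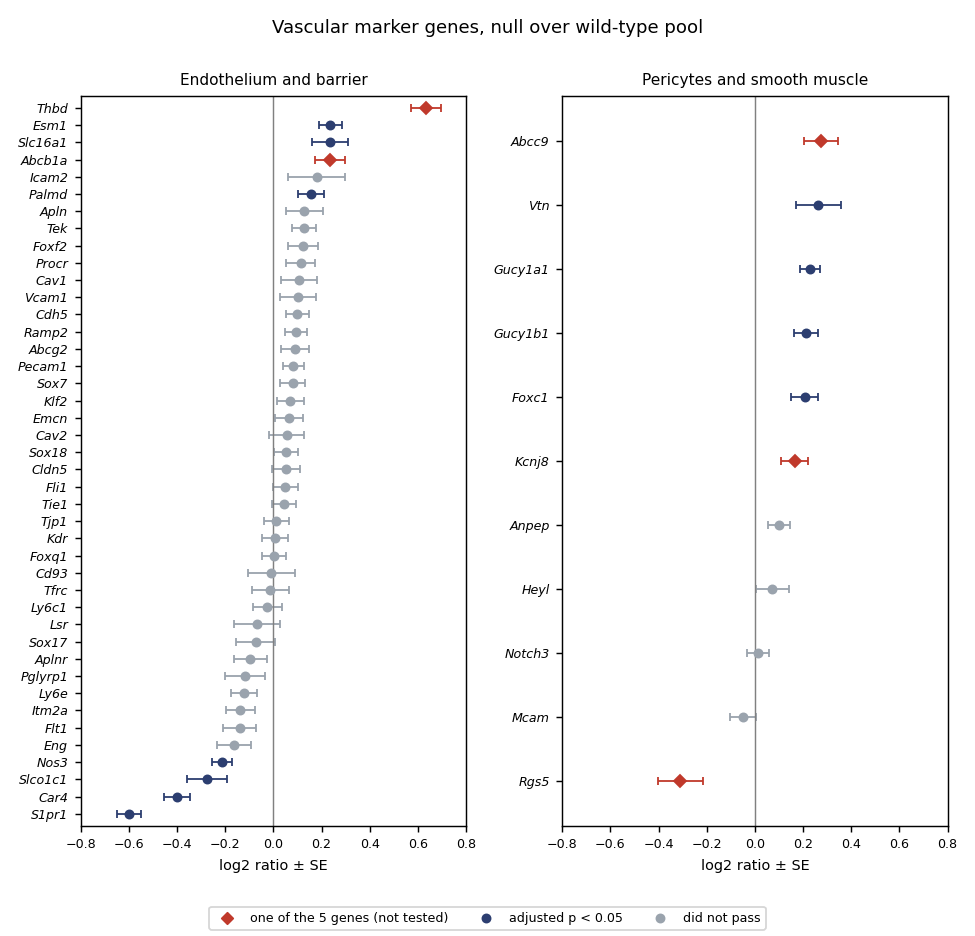
Each row is a gene of the endothelial list (left) or the pericyte list (right), the x axis is the log2 ratio of null over wild type, and bars are standard errors over the arrays; red diamonds are the described genes, dark blue points passed at an adjusted p of 0.05 and grey points did not. Thbd at 0.63 stands to the right of every other endothelial gene, and Rgs5 at -0.31 to the left of every other pericyte gene.

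The pericyte list shares Foxc1 and Vtn with the list of meningeal and fibroblast markers, which was higher as well. Of the other pericyte genes that rose, only Gucy1a1 and Gucy1b1 are not on that list. Of 14 tested meningeal genes 9 rose and 0 fell, or 64.3% called beside 28.8% of all genes, with a median of 0.197, and the median of single arrays lay between 0.12 and 0.33. Without array 11 the count was 5. Ogn rose by 0.58 ± 0.07, Col1a1 by 0.42 ± 0.08, Serping1 by 0.34 ± 0.05 and Mgp by 0.29 ± 0.05. Of 13 microglia and macrophage genes 9 rose and 3 fell, or 92.3% called, with a median of 0.55 and medians of single arrays between 0.29 and 0.57. Thrombomodulin is also made by some myeloid cells. The part of meningeal or myeloid cells in the ratios of the 5 genes was not tested. Of the 5 erythroid genes tested, 0 passed (median -0.069). The counts for the remaining lists of other cells were 4 up and 2 down of 10 astrocyte genes, 3 up and 5 down of 13 neuronal genes, and 1 up and 1 down of 3 choroid plexus genes. The shares called were 60%, 61.5% and 66.7%, beside 28.8% of all genes.

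In the coagulation pathway to which thrombomodulin belongs, 3 of 12 other tested genes rose, 0 fell and 9 did not pass, or 25% called beside 28.8% of all genes, with a median of 0.064. Tfpi, the inhibitor of the tissue factor pathway, rose by 0.36 ± 0.04 on 11 of 11 arrays (adjusted p = 3.9e-05). Pros1, protein S, the cofactor of activated protein C, rose by 0.33 ± 0.06, and Anxa5, which covers the phospholipids on which clotting enzymes assemble, rose by 0.23 ± 0.06. On the Cy3 arrays alone 0 genes of this list rose, and on the Cy5 arrays alone 2. The dye term (plus for Cy5, minus for Cy3 arrays) was 0.19 for Tfpi, 0.20 for Pros1 and 0.01 for Anxa5. Its limma adjusted p was 0.062 for Tfpi and 0.078 for Pros1, so the sizes of these 2 rises differed between orientations without passing. Protein C itself, Proc, was at 0.04 ± 0.04, the thrombin receptor F2r at 0.09 ± 0.06, and the plasminogen activator Plat at -0.04 ± 0.05. The clotting factors F7, F9 and F10 lay between -0.04 and 0.03.

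Among potassium channels and their regulators, the relatives of Kcnj8 and Abcc9 lay on both sides of 0. Of 6 other inward rectifiers tested, 1 fell and 0 rose, or 16.7% called beside 28.8% of all genes, with a median of -0.022. Kcnj11, which encodes Kir6.2, the pore of the neuronal and islet channel, was at 0.10 ± 0.09 (adjusted p = 0.422). Kcnj15 fell by 0.24 ± 0.06. Kcnj4, at -0.40 ± 0.15, and Kcnj1, at 0.28 ± 0.11, did not pass (limma adjusted p = 0.065 and 0.067). Abcc8, the other sulfonylurea receptor, was not analysed here.

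Of the other ABC efflux transporters, Abcg2, the second main pump of the barrier, was at 0.09 ± 0.06 (adjusted p = 0.262). Abcc5 rose by 0.24 ± 0.06, Abcc2 fell by 0.23 ± 0.06, and Abcc1 was at 0.05 ± 0.04. Thus 2 of 4 passed, in opposite directions, or 50% called beside 28.8% of all genes. Abcc2 had values on 9 arrays, and its call was absent without array 3, 5 or 11, all Cy5 arrays. A gene left with under 3 values in 1 orientation goes untested. These counts do not tell that apart from a call that was lost.

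The other RGS genes lay between -0.60 and 0.01. Of 6 tested members other than Rgs5, 2 fell, 0 rose and 4 did not pass, or 33.3% called beside 28.8% of all genes. Their median was -0.21, and it was below 0 on 11 of 11 arrays. Rgs2, an inducible regulator of Gq signalling, fell by 0.60 ± 0.08, and Rgs7, a neuronal member, fell by 0.38 ± 0.05, both on every array. Rgs11 was at -0.27 ± 0.10 (adjusted p = 0.063). Rgs4, the neighbour and a close paralog of Rgs5, had values on 8 arrays but on too few of 1 orientation to be tested; they ran from -0.44 to 0.64 with a median of -0.09. Rgs16 had a value on 1 array, -0.11.

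**Figure D3:**
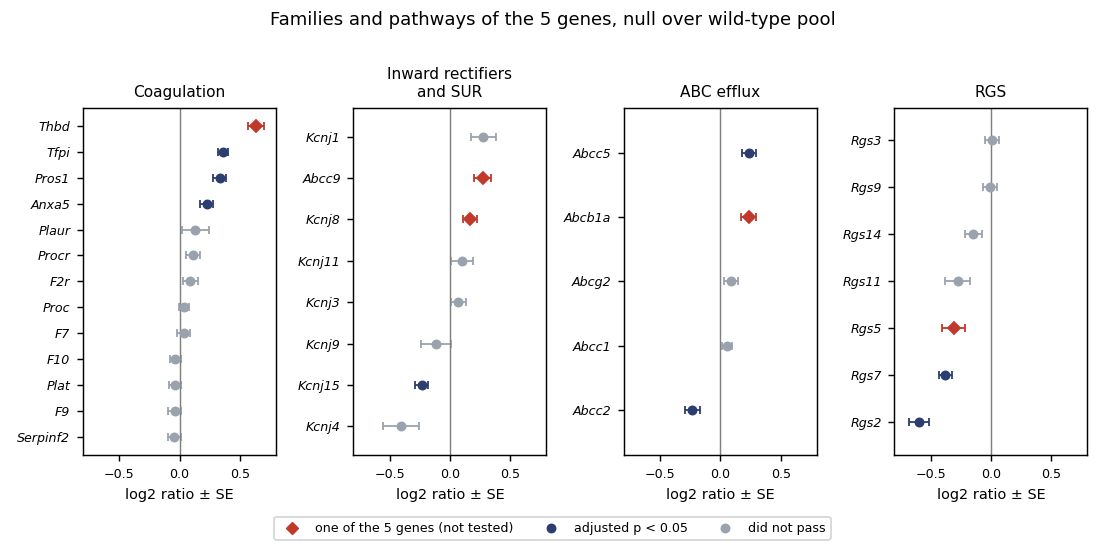
The x axis of each panel is the log2 ratio of null over wild type with its standard error, for the genes of coagulation, inward rectifiers with the sulfonylurea receptor, ABC efflux and RGS proteins; red diamonds are the described genes, dark blue points passed at an adjusted p of 0.05. Tfpi, Pros1 and Anxa5 lie between 0 and Thbd, and Rgs2 (-0.60) and Rgs7 (-0.38) lie to the left of Rgs5.

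Signals that recruit vessels and pericytes went both ways. Of 27 tested angiogenic ligands and receptors 5 rose and 4 fell, or 33.3% called beside 28.8% of all genes, with a median of 0.008. Vegfb rose by 0.68 ± 0.09 (n = 8), Reck, which the endothelial Wnt7 signal requires, by 0.37 ± 0.07, and Ednrb and Efnb2 by 0.24 each, as did the co-receptor Nrp1 (0.24 ± 0.09). Besides S1pr1, the growth factors Pdgfa (-0.32 ± 0.05), Pgf (-0.19 ± 0.05) and Tgfb1 (-0.16 ± 0.04) fell. Without any 1 array other than 4 or 10, 0 to 2 genes rose in place of 5. Vegfb, Reck and Ednrb had values on 8 arrays, the fewest allowed, and go untested once 1 of these is left out. Where 0 or 1 rose (0 without array 5, 7 or 11, and 1 without array 1 or 8), at least 1 of the calls of Efnb2 and Nrp1, which had values on all 11 arrays, was lost as well. Pdgfb, which endothelial cells release to hold pericytes, was at -0.11 ± 0.09 (adjusted p = 0.373). Of 11 hypoxia genes 3 rose and 0 fell, or 27.3% called beside 28.8% of all genes, with a median of 0.048: Ndrg1 at 0.40 ± 0.08, P4ha1 at 0.32 ± 0.09 and Epas1, a hypoxia-inducible factor that is abundant in endothelium, at 0.27 ± 0.08. Of these hypoxia genes 1 rose without arrays 1 and 6, and 0 on the Cy5 arrays alone.

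The spread of the 5 genes between arrays was set against each other and against the medians of 4 marker lists, 30 relations in all. None passed after Benjamini-Hochberg adjustment in a two-sided permutation test, exact where under 10 arrays had both values, and 1 had an unadjusted p under 0.05. That relation was Thbd with the meningeal median, with Pearson's r = 0.71 and Spearman's rho = 0.68 over 11 arrays (permutation p = 0.016 and 0.024, adjusted 0.481 and 0.661). It was 0.73 within the 6 Cy3 arrays and 0.54 without the 2 arrays farthest from the median of Thbd. With the microglial median Thbd had r = 0.22 and rho = 0.27 (permutation p = 0.508 and 0.416, adjusted 0.939 and 0.997).

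The channel partners Abcc9 and Kcnj8 had r = 0.20 and rho = 0.14 over the 8 arrays with both (exact permutation p = 0.657 and 0.752, adjusted 0.939 and 0.997). Their r was 0.69 without the 2 arrays farthest from the median of Abcc9, but -0.03 without array 4. With the median of the other pericyte genes, r was 0.60 for Abcc9 (n = 8, rho = 0.62) and 0.58 for Kcnj8 (n = 10, rho = 0.61), with permutation p of 0.079 and 0.057 for r, both exact or over 100000 resamples, and adjusted p of 0.589 and 0.571. Without array 4 this r was 0.71 for Abcc9 and 0.38 for Kcnj8. Without the 2 arrays farthest from the median of the gene itself it was 0.71 and 0.17. For Rgs5, r with the pericyte median was -0.66 with a rho of 0.06 (n = 11, permutation p = 0.156, adjusted 0.778). It was 0.36 without array 4, so the negative value rests on that array. The 5 Cy5 arrays are too few for a relation of their own, as are the Cy3 arrays for pairs with Abcc9 or Kcnj8.

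**Figure D4:**
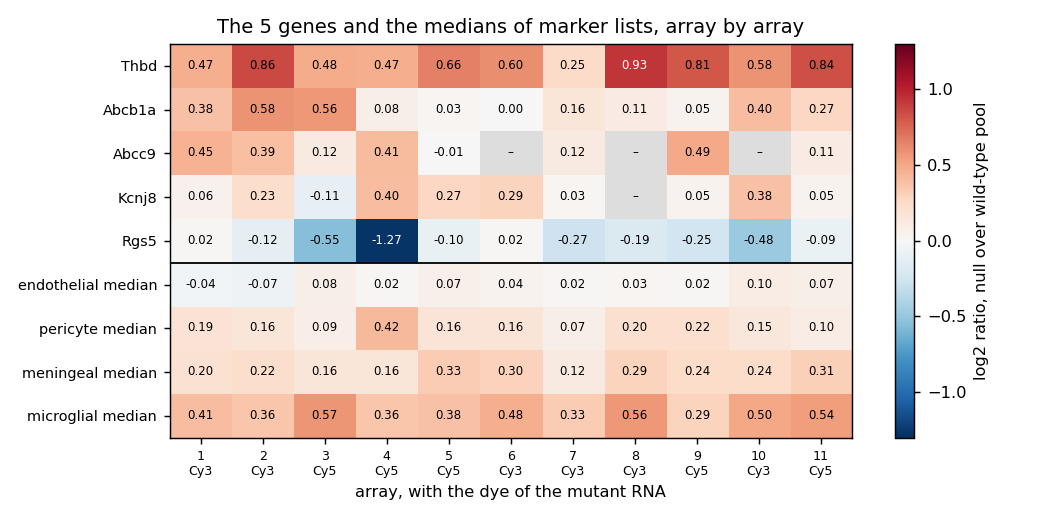
Columns are the 11 arrays with the dye of the mutant RNA, rows are the 5 genes and below the line the medians of 4 marker lists without them, and colour and number give the log2 ratio of null over wild type; grey cells have no value. The medians of the pericyte, meningeal and microglial lists are above 0 on all 11 arrays and that of the endothelial list on 9, between -0.065 and 0.099.

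Genes whose ratios varied most like those of each gene over the arrays, after the mean of each dye orientation was removed, were searched among 3695 or 3696 genes with values on all 11 arrays. For Thbd they were Pias2 (Pearson's r = 0.91), Usp15 (0.82) and Gna13 (0.77), and for Abcb1a Ddt (0.89), Cfp (0.82) and Lmo2 (0.81), each over 11 arrays. For Abcc9 they were Atp11a (0.95), Trf (0.95) and Tnmd (0.91) over 8 arrays, and for Kcnj8 Polr1e (0.92), Nxn (0.92) and Gsn (0.90) over 10. For Rgs5 they were Tcof1 (0.98), Zbtb14 (0.97) and Il13ra2 (0.96) over 11 arrays, with the low value of array 4 among them. These are the highest coefficients of that search, over few arrays that share the wild-type pool, and none of the 15 genes was another of the 5 described.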

How the data were processed

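The authors deposited ratios, taken here as log2, of 6856 probes on 11 arrays. Their log base and direction are unstated, and for background correction and normalization the steps were not given in the sources used here. Each array was centred near 0, with means from -0.00405 to 0.00298, which hides any shift common to all transcripts. Signal over background is unknown; precision is limited by how many arrays there are.

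Genes were named from the platform annotation: 6269 probes had 1 symbol, 6 several and 581 none, and 6250 were matched through Entrez identifiers to RefSeq genes (GRCm38.p6). Probes of a gene were averaged per array. Genes measured on 8 or more arrays, including 3 or more per dye orientation, were fitted with a mean and a dye term in limma 3.58.1 (R 4.3.3), two-sided, with Benjamini-Hochberg adjustment over all 4812 genes; testing a ratio against 0 ignores how wild-type samples vary. The fit was tested on simulated data. Correlations used permutation in scipy 1.17.1. Alternatives left out arrays, the dye term or 1 orientation, and changed the centring, the filter on missing values and the variance estimate.

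The members and lists were chosen with earlier results of these data known. Of each list, up to 4 genes past the threshold in each direction are named by smallest p, with fixed defining markers and paralogs; any other gene with a value was picked after its value was seen. The mutated gene is not reported here.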

Additional observations from a re-analysis of the deposited data

How the results depend on the processing

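The mean ratios of the 5 genes kept their sign, and moved by less than 1 SD between arrays, with no dye term, on the arrays of 1 dye orientation, without arrays 1 and 6, with arrays centred on the median, and with each array left out in turn. With the sign of the Cy5 arrays turned, Thbd had -0.018, Rgs5 0.14 and Abcc9 0.047, and 4 of the probes were called instead of 1545; this reading is the dye term itself, and it called 0 vascular genes (12 at an unadjusted p under 0.05 in limma). On the 5 Cy5 arrays alone 468 probes were called.

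Of the 48 vascular genes tested other than the 5, 11 were called, or 22.9% beside 28.8% of all genes. This count was 5 on the Cy3 arrays and 5 on the Cy5 arrays alone, 7 without arrays 1 and 6, 6 among genes with values on all 11 arrays, which tests fewer genes, and 7 to 13 with 1 array left out, being 7 without array 11. The calls over all probes changed with the setting as well, from 1545 to 1144 on the Cy3 arrays and 468 on the Cy5 arrays. The share of all genes called was not computed for each setting. The dye term called 4 probes, and 0 without arrays 1 and 6, with arrays centred on the median, with values on all 11 arrays or with values on at least 4, where 900 to 1351 had an unadjusted p under 0.05 in limma. With 1 array left out it called 0 to 341, with 341 without array 10; the cause was not tested. Relations across arrays stayed at 0 called under 3 alternatives, with 0 to 2 at an unadjusted permutation p under 0.05.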

Other observations

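Some vascular genes had values on too few arrays to be tested, and their ratios are given as they stand. Vegfa, the main growth factor of brain endothelium, had values on 7 arrays and was below 0 on all 7, from -0.77 to -0.04 with a median of -0.34. The leukocyte adhesion gene Icam1 was above 0 on 5 of 6 arrays (median 0.25, from -0.15 to 0.65). The glucose transporter of the barrier, Slc2a1, was below 0 on 3 of 4 arrays (median -0.15, from -0.26 to 0.40). The muscle filament gene Des, also found in pericytes, was above 0 on 4 of 7 arrays (median 0.31, from -0.40 to 0.60). The clotting genes with few values went both ways. F5 and Serpind1 were above 0 on 4 of 4 arrays each, with medians of 0.38 and 0.47. F8 was above 0 on 4 of 6 arrays (median 0.15) and F3, tissue factor, on 4 of 7 (median 0.09). The thrombin receptor relative F2rl3 had a median of -0.20 over 2 arrays. On the 1 array with a value, F2rl2 was at 0.47 and Plau at -0.29.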
